A study of Mus musculus with 8 samples.

Results

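The 32 genes described here mark blood and lymphatic endothelium, the cell layer that lines vessels. They were chosen by name, with earlier results of these data known. The array has at least 1 probe set for each of them that is annotated to that gene alone, 52 of 45101 in all. Whole ankle joints of mice aged 5 months were profiled on 8 single-colour Affymetrix arrays. The labels describe each array as ankle joint of mouse with a replicate number and do not state how many animals it holds. The 2 wild-type arrays come from animals labelled wild-type with normal sphingosine kinase 1 (Sphk1) activity. The 3 hTNF arrays come from animals that over-express a human TNF transgene and have normal Sphk1 activity, and 3 further arrays from animals with the same transgene that are labelled functionally null for Sphk1. The promoter of the transgene, the strain, the sex and the way in which Sphk1 was inactivated are not given in the sources used here. It is also not stated whether the mice of a group were littermates or handled together, so the p-values cover the spread between these arrays and nothing wider.

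Endothelial cells hold each other through the cadherin Cdh5, the claudin Cldn5 and immunoglobulin-family proteins such as Pecam1, Esam and Icam2. They receive growth signals through the VEGF receptors Flt1, Kdr and Flt4 and through Tek, the receptor of the angiopoietins, which works together with Tie1. The ETS factor Erg and the factors Sox7, Sox17 and Sox18 maintain the program of blood vessels, while Prox1 sets the identity of lymphatic vessels. In a joint, vessels run through the synovium, bone marrow, muscle, fat and skin, so the endothelial signal of a whole ankle sums many vascular beds. In such tissue, fewer cells of a type and less RNA per cell cannot be told apart.

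Values are the deposited log2 expression values. A probe set was tested where it exceeded the median of the table, 6.87, on at least 2 of the 8 arrays, and a gene is represented by its brightest tested probe set. Of the 32 genes, 31 were tested, and 30 of these exceeded that median on all 8 arrays, so they did not enter through 1 group alone. The exception was Sox17, which fell to 6.75 on replicate 2 of the arrays labelled Sphk1 null. Prox1 was not tested: its 3 probe sets read between 3.91 and 5.44 on all 8 arrays, all below that median. Differences are given as log2 units with the standard error (SE) of the fit; a gene is said to rise or fall only where the limma p adjusted over all 24115 tested probe sets is under 0.05.

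Sphk1 and the sex-linked genes touch every comparison. The brighter probe set of Sphk1 read 7.16 and 7.25 in wild type, 8.28 to 8.65 in hTNF and 9.94 to 10.22 on the arrays labelled Sphk1 null. Its RNA signal was thus highest on the arrays labelled null, and a second, dimmer probe set (6.12 to 6.74) did not follow it. The label concerns function, so an RNA level can neither bear it out nor contradict it. The arrays are therefore called by their label below. Xist was high while Y-linked Eif2s3y was above the 3.46 to 3.81 of the other arrays with high Xist on wild-type replicate 2 (13.09 and 6.91), hTNF replicate 1 (13.05 and 6.60) and replicate 1 of the arrays labelled null (11.19 and 9.14). These are called the 3 arrays with mixed sex-linked signal, and counts are given with and without them. For the first 2 this rests on Eif2s3y alone, which lies near the table median of 6.87 on one and below it on the other. Kdm5d, another Y-linked gene, was high on the last of these 3 only (7.22, against 4.24 and 4.27). The mean of the 4 tested sex-linked genes was 7.49 on wild-type replicate 1 and 7.66 on hTNF replicate 2. It was 6.46 on hTNF replicate 3 and 6.55 and 6.47 on replicates 2 and 3 of the arrays labelled null. Leaving out the 3 arrays therefore does not make the groups alike in sex-linked signal, and the part of sex in the differences was not tested.

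Of the members whose call held under every alternative processing, those with a promoter window are shown here. These genes moved in opposite directions while sharing the endothelial label. RefSeq promoter windows (GRCm38.p6) were found for 18 of the 32 genes. None was found for Esam, Ptprb, Sox17, Gpihbp1 and Ecscr, whose calls held as well. The windows printed are those of the genes that have a single window, trimmed to the 250 bases before the start and written 5′ to 3′ on the strand of the gene. Capitals mark AGGAAG, a core that ETS factors such as Erg recognise on either strand. Cldn5, Robo4, Tek and Ushbp1 fell in hTNF joints and Aqp1 rose.
Cldn5 (chr16:18776597-18776846, + strand): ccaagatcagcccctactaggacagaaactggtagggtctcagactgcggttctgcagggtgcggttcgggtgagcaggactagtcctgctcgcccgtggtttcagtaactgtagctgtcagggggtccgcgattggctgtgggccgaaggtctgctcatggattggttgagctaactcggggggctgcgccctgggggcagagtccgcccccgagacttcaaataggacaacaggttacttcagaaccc
Robo4 (chr9:37401722-37401971, + strand): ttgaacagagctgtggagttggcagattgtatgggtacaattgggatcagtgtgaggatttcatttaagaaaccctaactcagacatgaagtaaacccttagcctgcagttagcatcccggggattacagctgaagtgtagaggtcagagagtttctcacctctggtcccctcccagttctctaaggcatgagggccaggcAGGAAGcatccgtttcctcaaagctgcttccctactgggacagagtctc
Tek (chr4:94739039-94739288, + strand): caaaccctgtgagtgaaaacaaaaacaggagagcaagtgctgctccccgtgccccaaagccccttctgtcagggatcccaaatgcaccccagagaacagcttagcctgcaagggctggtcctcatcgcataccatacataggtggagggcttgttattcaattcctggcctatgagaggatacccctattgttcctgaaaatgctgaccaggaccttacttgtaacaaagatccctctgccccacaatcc
Ushbp1 (chr8:71395802-71396051, - strand): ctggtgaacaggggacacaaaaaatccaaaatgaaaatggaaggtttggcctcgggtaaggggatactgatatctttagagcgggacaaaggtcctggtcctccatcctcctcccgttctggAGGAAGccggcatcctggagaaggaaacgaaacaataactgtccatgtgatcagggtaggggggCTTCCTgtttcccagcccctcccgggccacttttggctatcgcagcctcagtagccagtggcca
Aqp1 (chr6:55336049-55336298, + strand): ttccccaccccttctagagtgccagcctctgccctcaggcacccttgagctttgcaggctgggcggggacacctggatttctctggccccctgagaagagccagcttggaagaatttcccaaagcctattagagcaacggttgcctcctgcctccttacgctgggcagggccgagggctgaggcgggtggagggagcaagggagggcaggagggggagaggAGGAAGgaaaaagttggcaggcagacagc

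The ETS core was found on either strand in 11 of the 25 windows of the members (44.0%), against 29.5% of all 32851 windows of this length. Among the printed windows it lies once in that of Robo4 and of Aqp1 and in 2 places in that of Ushbp1. Those of Tek and Cldn5 hold none. Aqp1 is the only printed gene that rose, so these windows cannot tell whether the core goes with the direction of change. The SOX motif AACAAT was in 5 member windows (20%, against 9.42% of all), and the motif of the family to which Gata2 belongs, AGATAA, was in 2 (8.0%, against 9.99%). The KLF motif CACCC was in 14 (56.0%, against 52.0%). GTAAACA (FOX) was in none of the 25, against 3.17% of all windows. Each motif was searched on both strands, none of them contains another, and some genes have several windows. A match describes the letters of a window, not a bound site.

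Endothelial genes were mostly lower in hTNF joints than in wild-type joints, and a few were higher. Of the 31 tested genes, 18 fell and 2 rose (64.5% called, against 33.0% of all tested probe sets; 16.4% of all fell and 16.6% rose). The groups did not overlap for 20 members that were lower and 4 that were higher, against 30.9% and 30.6% of all tested probe sets. The median difference was -0.54 log2 over the members and 0.01 over all tested probe sets. Because the members were chosen with earlier results of these data known, these shares and medians are a description. The falls ranged from the capillary protein Gpihbp1 (-1.27) to the secreted vessel protein Egfl7 (-0.51), and the rises were Ecscr (1.01) and the water channel Aqp1 (0.62). The count of called genes depends on single arrays: it was 10 (32.3%) without wild-type replicate 2, 12 (38.7%) without hTNF replicate 1, and 10 (32.3%) without the 3 arrays with mixed sex-linked signal, while 25.2%, 29.5% and 32.8% of all tested probe sets were called. Without the 3 arrays the share called among the members was thus no larger than among all probe sets. The share that fell was 25.8%, 32.3% and 25.8% of the members, against 12.8%, 14.3% and 16.3% of all, and the median of the members was -0.42, -0.41 and -0.31. Under all 17 alternatives, which include these 3, 8 genes kept their fall (Cldn5, Esam, Robo4, Ptprb, Tek, Sox17, Gpihbp1 and Ushbp1) and Ecscr and Aqp1 kept their rise. The fits without a wild-type replicate or without the 3 arrays hold only 1 wild-type array. A call lost in such a fit, here or below, cannot be told from a loss of precision.

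**Figure D1:**
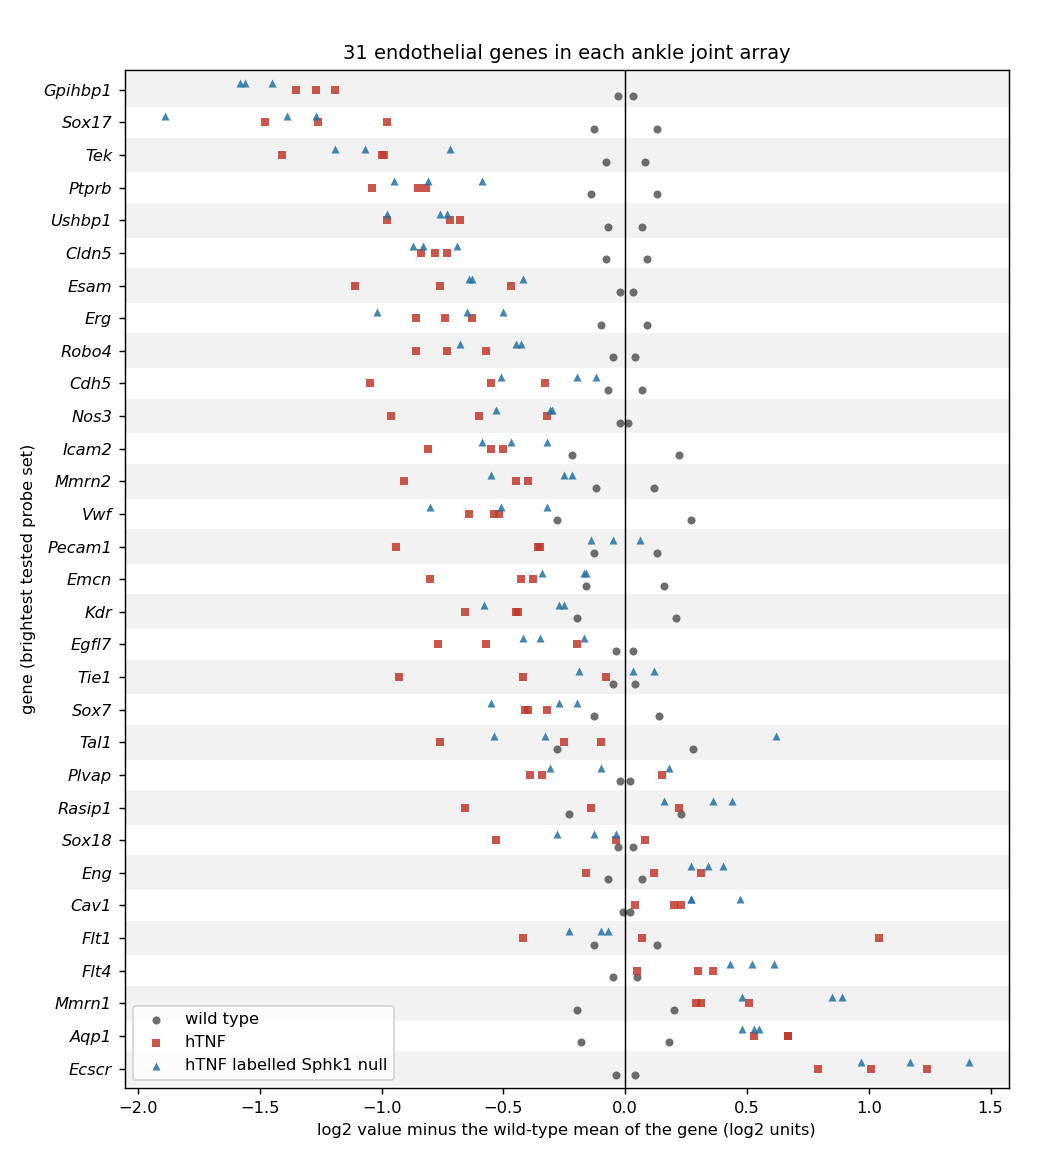
Log2 value of each tested endothelial gene (rows, brightest probe set) on each of the 8 arrays, minus the wild-type mean of that gene; circles are 2 wild-type, squares 3 hTNF and triangles 3 arrays labelled Sphk1 null. All transgenic arrays lie left of the wild-type arrays for the genes at the top, led by Gpihbp1, and right of them for Aqp1 and Ecscr at the bottom, while a lone hTNF square stands apart at Flt1.

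Among the 10 junction and surface proteins, 8 fell and 1 rose. Cldn5, which seals the tight junction, read 10.86 and 11.03 in wild type, 10.10, 10.16 and 10.21 in hTNF, and 10.11, 10.07 and 10.25 on the arrays labelled Sphk1 null. All 6 transgenic arrays lie below both wild-type arrays. Cldn5 fell by 0.79 log2 in hTNF (-0.79 ± 0.10, SE, 3 arrays against 2; limma adjusted p = 0.00053), and the spread within each group was smaller than this difference.

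Ptprb, the endothelial phosphatase that acts on Tek and on Cdh5 junctions, read 10.32 and 10.59 in wild type, 9.42, 9.61 and 9.64 in hTNF, and 9.87, 9.51 and 9.65 on the arrays labelled null. It fell (-0.90 ± 0.14, limma adjusted p = 0.00129). A second Ptprb probe set had the same sign without a call (-0.36 ± 0.18, adjusted p = 0.164), and 1 more was too dim to test. Esam, an adhesion molecule of endothelial junctions, read 10.52 and 10.57 in wild type against 9.43, 10.07 and 9.78 in hTNF (-0.78 ± 0.17, adjusted p = 0.00683). The receptor Robo4 read 8.71 and 8.80 against 7.90, 8.19 and 8.03 (-0.72 ± 0.13, adjusted p = 0.00287). For both genes hTNF replicate 1 was the lowest array, and neither group overlapped with the other.

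The most widely used endothelial surface markers fell by less. Cdh5 (-0.64 ± 0.20, adjusted p = 0.0373) read 9.73 and 9.87 in wild type and 8.75, 9.47 and 9.25 in hTNF. Pecam1 (-0.55 ± 0.18, adjusted p = 0.045) read 9.96 and 10.22 against 9.15, 9.73 and 9.74. Icam2 (-0.62 ± 0.16, adjusted p = 0.0166) and the sialomucin Emcn (-0.54 ± 0.16, adjusted p = 0.0269) completed the falls. These calls are close to the threshold. Without wild-type replicate 2 none of the 4 was called: the adjusted p was 0.17 for Cdh5, 0.243 for Pecam1, 0.151 for Icam2 and 0.2 for Emcn. Pecam1 kept its call under 7 of the 17 alternatives and lost it without either wild-type array, hTNF replicate 1 or any array labelled null, and Cdh5 kept it under 9. Over all 17 alternatives the adjusted p of Cdh5 ran from 0.0176 to 0.202 and that of Pecam1 from 0.0243 to 0.243, and those of Icam2 and Emcn from 0.0144 to 0.185 and from 0.0194 to 0.2.

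Ecscr, a surface regulator of endothelial migration, went the other way. Its probe set read 8.56 and 8.64 in wild type, 9.39, 9.84 and 9.61 in hTNF, and 10.01, 9.57 and 9.77 on the arrays labelled null. Every transgenic array is above both wild-type arrays. Ecscr rose 2.02-fold in hTNF (1.01 ± 0.16 log2, limma adjusted p = 0.00147), and it is measured by this 1 probe set alone. Eng, a co-receptor of the TGF-beta family, differed by 0.09 ± 0.14 at its brightest probe set and by -0.29 ± 0.13 at its second (adjusted p = 0.676 and 0.132), so its probe sets have opposite signs and neither passed.

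The receptors divided. Tek fell most: it read 9.63 and 9.79 in wild type, 8.30, 8.71 and 8.72 in hTNF, and 8.99, 8.52 and 8.64 on the arrays labelled null, which is 2.19-fold lower in hTNF (-1.13 ± 0.18, limma adjusted p = 0.00126). Tie1, its partner receptor, read 9.10 and 9.01 in wild type but 8.13, 8.98 and 8.64 in hTNF, a difference of -0.47 ± 0.22 that did not pass (adjusted p = 0.132). The 3 hTNF arrays spread over a wide range for Tie1, and the highest of them, 8.98, is next to the wild-type values. Kdr, the main VEGF receptor of blood vessels, fell (-0.52 ± 0.16, adjusted p = 0.0311), a call that held under 11 of the 17 alternatives and ended without wild-type replicate 2 or any 1 of the hTNF arrays (adjusted p of 0.0133 to 0.248 over all 17).

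Flt1, which binds VEGF as a receptor and as a soluble decoy, was set by 1 array. Its brightest probe set read 8.78 and 9.04 in wild type, 9.95, 8.49 and 8.98 in hTNF, and 8.84, 8.81 and 8.68 on the arrays labelled null. The value of hTNF replicate 1 was the highest of all 8 arrays for each of the 4 tested Flt1 probe sets, at 9.95, 9.29, 8.42 and 8.0. None of the 4 was called (differences of 0.23 to 0.64 log2, adjusted p of 0.0951 to 0.661). On the same array 25 of the 31 members were the lowest of the hTNF group. Flt4, the VEGF receptor of lymphatic vessels, differed by 0.24 ± 0.12 in hTNF (adjusted p = 0.184), with a second probe set at 0.17.

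**Figure D2:**
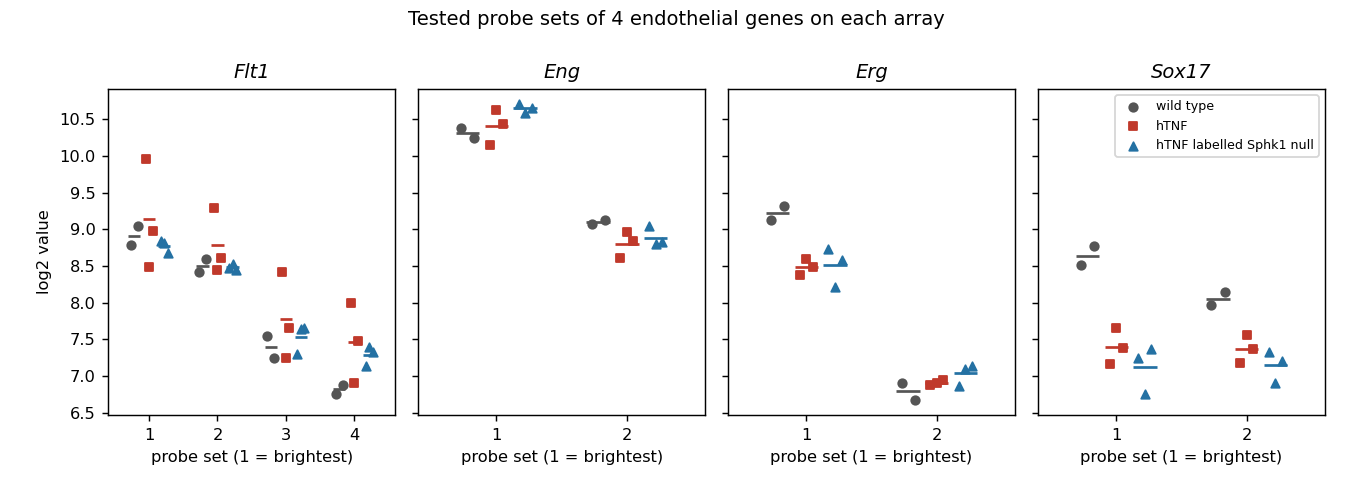
Log2 values of all tested probe sets of Flt1, Eng, Erg and Sox17 on each array, ordered from the brightest; circles are wild type, squares hTNF and triangles arrays labelled Sphk1 null, and short lines are group means. One hTNF array is above all others in each of the 4 Flt1 probe sets, the 2 Sox17 probe sets fall together, and the probe sets of Eng and of Erg differ in direction.

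Among the transcription factors, Sox17 and Erg fell. Sox17, a factor of arterial endothelium, read 8.51 and 8.77 in wild type, 7.16, 7.66 and 7.38 in hTNF, and 7.25, 6.75 and 7.37 on the arrays labelled null. No transgenic array reached the wild-type range. The fall was 2.36-fold (-1.24 ± 0.21, adjusted p = 0.00197), and the second Sox17 probe set fell as well (-0.69 ± 0.17, adjusted p = 0.0117). Its relatives did not pass: Sox7 differed by -0.38 ± 0.14 (adjusted p = 0.064) and Sox18 by -0.16 ± 0.17 (adjusted p = 0.524), so of the 3 factors of this subfamily only Sox17 was called, and the difference between their changes was not tested.

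Erg read 9.13 and 9.32 in wild type against 8.37, 8.60 and 8.49 in hTNF (-0.74 ± 0.16, adjusted p = 0.00703). Its other tested probe set, near the dim limit at 6.67 to 7.14, did not follow (0.12 ± 0.15, adjusted p = 0.586). The Erg call ended without wild-type replicate 2 (adjusted p = 0.0583) and without the 3 arrays with mixed sex-linked signal (0.0535); over all 17 alternatives it ran from 0.00176 to 0.0583. Tal1, a factor that endothelium shares with blood cell precursors, differed by -0.37 ± 0.34 (adjusted p = 0.458). Tal1 was highest, at 8.66, on replicate 3 of the arrays labelled null, where the mean of 7 tested erythroid markers was also highest (8.78, against 6.85 to 7.99 on the other arrays); the part of erythroid cells in its level was not tested.

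The genes of the lumen, of transport and of haemostasis held both the strongest fall and a rise. Gpihbp1, which carries lipoprotein lipase to the capillary lumen, read 10.42 and 10.48 in wild type, 9.18, 9.26 and 9.10 in hTNF, and 9.0, 8.87 and 8.89 on the arrays labelled null. The replicates of each group lie within a narrow band, and all 3 bands are separate. The fall in hTNF was 2.41-fold (-1.27 ± 0.10, adjusted p = 5.2e-05), and over the 17 alternatives it stayed between -1.31 and -1.23. All 13 tested adipocyte markers fell in hTNF too, against 16.4% of all tested probe sets. Their means were 11.85 and 11.92 in wild type, 10.03 to 10.22 in hTNF and 9.60 to 9.98 on the arrays labelled null. The part of adipocytes in the fall of Gpihbp1 was not tested.

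Nos3, the endothelial nitric oxide synthase, fell (-0.62 ± 0.18, adjusted p = 0.024), as did the clotting factor carrier Vwf (-0.56 ± 0.18, adjusted p = 0.0419). Both calls ended without wild-type replicate 2 (adjusted p = 0.0892 and 0.334) and without hTNF replicate 1 (0.051 and 0.0691) or 3 (0.0587 and 0.0892), that of Nos3 also without wild-type replicate 1 and that of Vwf without hTNF replicate 2 or replicate 3 of the arrays labelled null, and their adjusted p over all 17 alternatives ran from 0.00925 to 0.119 and from 0.0186 to 0.334. Plvap, which forms the diaphragms of endothelial pores, read 10.94 and 10.98 in wild type and 10.57, 11.11 and 10.62 in hTNF, with overlapping groups (-0.19 ± 0.18, adjusted p = 0.475). Cav1, the coat protein of caveolae that fibroblasts and adipocytes also make, differed by 0.15 ± 0.09 (adjusted p = 0.229). Aqp1, which red cells and endothelium both carry, read 12.34 and 11.98 in wild type, 12.83, 12.69 and 12.83 in hTNF, and 12.69, 12.71 and 12.64 on the arrays labelled null. It rose in hTNF (0.62 ± 0.11, limma adjusted p = 0.00195), and the groups did not overlap. None of the 7 tested erythroid markers was called, but their mean differed between the wild-type arrays (6.96 and 7.99). The part of red cells in the rise of Aqp1 was not tested.

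Of the 5 matrix and cytoplasmic proteins, 3 fell. Ushbp1 read 8.28 and 8.42 in wild type, 7.37, 7.67 and 7.63 in hTNF and 7.59, 7.37 and 7.62 on the arrays labelled null, without overlap (-0.79 ± 0.14, adjusted p = 0.00235). Mmrn2, a matrix protein laid down by endothelium, fell at 2 of its 4 tested probe sets, and all 4 were negative (-0.59 to -0.16); the call of the brightest was lost when wild-type replicate 1 (adjusted p = 0.0654), wild-type replicate 2 (0.184) or hTNF replicate 1 (0.0694) was left out, with a range of 0.0215 to 0.205 over the 17 alternatives. Egfl7 was also negative at all 4 probe sets (-0.51 to -0.23), but only its brightest was called (adjusted p = 0.0392), and it kept that call under 7 of the 17 alternatives (adjusted p of 0.00898 to 0.18). The call ended without wild-type replicate 1 (0.18) or 2 (0.111), without hTNF replicate 1 (0.102) or 3 (0.107), without the array labelled null replicate 3 (0.0577), and with the mean of its probe sets (0.108). Rasip1, which helps vessels to form a lumen, differed by -0.19 ± 0.24 (adjusted p = 0.601). Mmrn1, a protein of platelets and lymphatic endothelium, read 8.70 and 9.10 in wild type and 9.21, 9.19 and 9.41 in hTNF; the groups did not overlap, but the difference of 0.37 ± 0.17 did not pass (adjusted p = 0.124).

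On the arrays labelled Sphk1 null, the endothelial genes differed from wild type in both directions. Of the 31 tested members 11 fell and 5 rose (51.6% called, against 39.0% of all tested probe sets; 20.2% of all fell and 18.7% rose), with a median of -0.31 log2. The falls were led by Gpihbp1 (-1.53 ± 0.10, adjusted p = 1.4e-05), Sox17 (-1.52 ± 0.21, adjusted p = 0.000483) and Tek (-0.99 ± 0.18, adjusted p = 0.00187). Ecscr (1.18 ± 0.16, adjusted p = 0.00045) and Aqp1 (0.52 ± 0.11, adjusted p = 0.00401) rose here too. Among the other falls, Esam, Icam2, Robo4, Erg and Vwf lost their call in at least 1 alternative, all 5 of them without wild-type replicate 2 (adjusted p = 0.115, 0.373, 0.0806, 0.0574 and 0.356), and Icam2 kept it under only 5 of the 17. The comparison shares its 2 wild-type arrays with that of hTNF against wild type. Without wild-type replicate 2 the count was 10 (4 higher, 6 lower), and without the 3 arrays with mixed sex-linked signal it was 12 (5 higher, 7 lower). These are 32.3% and 38.7% of the members, against 30.1% and 38.7% of all tested probe sets, so the members' share was then near that of all; falls alone were 19.4% and 22.6%, against 16% and 22.1%.

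The other 3 rises were Mmrn1, Flt4 and Cav1. Mmrn1 read 9.79, 9.38 and 9.75 on the arrays labelled null, all above both wild-type arrays (0.74 ± 0.17, adjusted p = 0.0066). Flt4 read 8.95 and 9.05 in wild type, 9.05, 9.30 and 9.36 in hTNF and 9.52, 9.43 and 9.61 on the arrays labelled null (0.52 ± 0.12, adjusted p = 0.00899), and its second probe set was called in the same direction (0.57). Cav1 rose by 0.33 ± 0.09 (adjusted p = 0.015). The call of each ended without wild-type replicate 1, where the adjusted p was 0.0746 for Mmrn1, 0.0713 for Flt4 and 0.0598 for Cav1, which also lost it without wild-type replicate 2 (0.0731); over the 17 alternatives the adjusted p ran from 0.00303 to 0.0746, 0.00649 to 0.0713 and 0.00737 to 0.0731. Mmrn1 and Flt4 are often used as lymphatic markers; of the 13 tested genes on a list of other lymphatic genes, 4 rose and 5 fell here (5 in all without wild-type replicate 1), and Prox1 was too dim to test.

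Several markers whose mean was lower in hTNF lay nearer to wild type on the arrays labelled null. Pecam1 read 10.04, 9.95 and 10.15 there, within the wild-type range of 9.96 to 10.22 or within 0.01 below it. Its difference from wild type was -0.04 (95% interval -0.46 to 0.37). Tie1 read 9.18, 8.87 and 9.09 and differed from wild type by -0.01 (-0.50 to 0.48). Rasip1, which differed by -0.19 in hTNF, read 8.41, 8.21 and 8.49 and lay on the other side of wild type (0.32, -0.23 to 0.87); neither difference was called. Cdh5 (-0.28, -0.74 to 0.18), Nos3 (-0.38, -0.77 to 0.02), Mmrn2 (-0.34, -0.74 to 0.06), Emcn (-0.22, -0.58 to 0.13), Kdr (-0.37, -0.73 to -0.01) and Egfl7 (-0.31, -0.68 to 0.06) fell in hTNF and were not called here. Whether these genes differ between the transgenic groups is the question of the direct comparison.

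In that comparison none of the 31 genes passed limma's threshold, and 2 of all 24115 probe sets did (0.00829%). At an unadjusted p under 0.05 there were 7 members, 6 higher and 1 lower on the arrays labelled null, against 2.65% and 4.96% of all tested probe sets. The 6 were Pecam1 (0.51 ± 0.16), Rasip1 (0.51 ± 0.22), Tie1 (0.46 ± 0.19), Mmrn1 (0.37 ± 0.15), Flt4 (0.28 ± 0.11) and Cav1 (0.18 ± 0.08), with limma adjusted p of 0.607 to 0.656, and the 1 was Gpihbp1 (-0.26 ± 0.09, adjusted p = 0.612). In all, 25 of the 31 differences were positive, against 45.5% of all tested probe sets, with a median of 0.17 against -0.02. Both the size and the sign of these differences depended on a few arrays, and the sign of 12 of the 31 turned under some alternative. Without hTNF replicate 1 the median was 0.07, with 24 positive signs (43.4% of all probe sets) and 2 members at an unadjusted p under 0.05. Without the 3 arrays with mixed sex-linked signal it was 0.04, with 19 positive signs (35.1% of all) and 2 such members. Leaving out the array labelled null replicate 3 gave 0.14, with 21 positive signs (47.0% of all) and 2 such members.

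The groups did not overlap for Pecam1, Emcn, Flt4 and Cav1, which were higher on the arrays labelled null, nor for Gpihbp1, which was lower. These are 12.9% and 3.23% of the members, against 5.34% and 5.85% of all tested probe sets. Pecam1, Icam2 and Flt4 lie on chromosome 11, as does Sphk1, but the groups overlapped for Icam2. Emcn lies on chromosome 3, Cav1 on chromosome 6 and Gpihbp1 on chromosome 15. The part of chromosomal position in these differences was not tested. The intervals bound what these arrays leave possible: the difference between transgenic groups was between -0.22 and 0.20 for Cldn5, between -0.31 and 0.35 for Erg, between -0.22 and 0.50 for Tek and between 0.14 and 0.88 for Pecam1, before any adjustment for the number of genes.

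**Figure D3:**
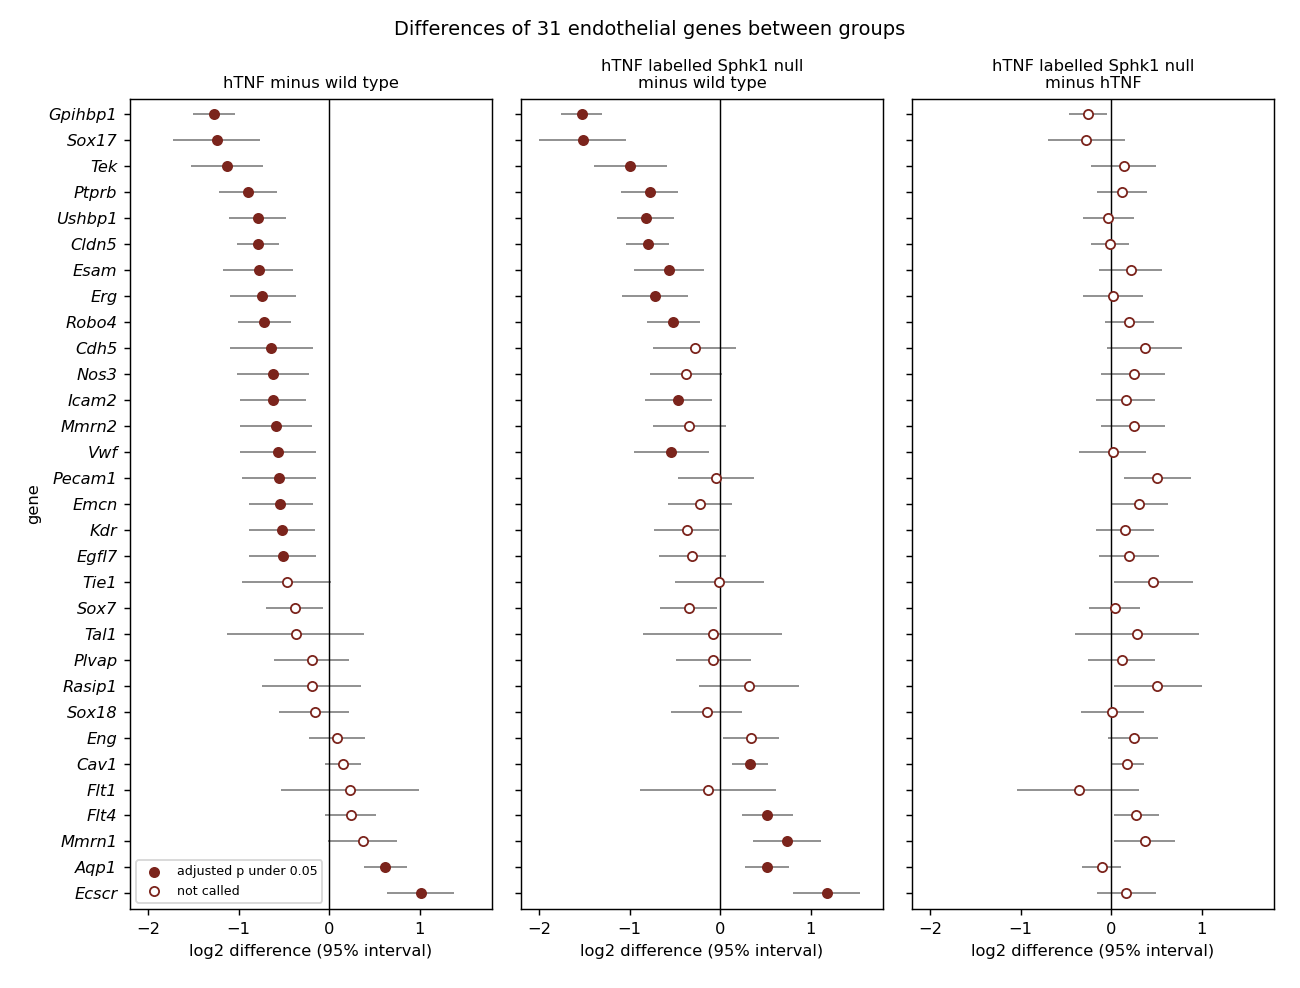
Log2 difference with its 95% interval for the 31 tested endothelial genes in each of the 3 comparisons, from the fit to all 8 arrays; filled points have a limma adjusted p under 0.05. The left panel holds 18 filled falls and 2 filled rises, the middle panel 11 and 5, and the right panel none.

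The arrays of a group did not carry the endothelial signal evenly. The mean over the 31 members was 9.59 and 9.70 in wild type, 9.06, 9.37 and 9.29 in hTNF and 9.46, 9.24 and 9.46 on the arrays labelled null. Of the members, 25 were lowest of their group on hTNF replicate 1 (80.6%, against 41.7% of all tested probe sets) and 24 on replicate 2 of the arrays labelled null (77.4%, against 54.7%). The higher wild-type array was replicate 2 for 22 members. Keratinocyte markers, of which 13 of 15 were tested, averaged 11.40, 6.63 and 8.77 in hTNF and 9.97, 6.80 and 9.19 on the arrays labelled null. The lowest endothelial array thus had the most skin signal of the hTNF group and the least of the group labelled null. Wild type had skin signal of 8.30 and 7.35. The part of skin in the endothelial values was not tested.

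Other endothelial genes, from lists outside the members, were counted in the same way. Beside these counts, 16.4% of all tested probe sets fell and 16.6% rose in hTNF. On the arrays labelled null 20.2% fell and 18.7% rose. Of 30 tested surface and cytoplasmic genes of endothelium 16 fell and none rose in hTNF (median -0.48), and on the arrays labelled null 14 fell and 1 rose. Palmd (-1.29 ± 0.15, adjusted p = 0.000303), the adhesion G protein-coupled receptors Adgrl4 (-1.10 ± 0.19, adjusted p = 0.00204) and Adgrf5 (-0.99 ± 0.14, adjusted p = 0.000814) changed most. The count was lower without wild-type replicate 1 or 2, and so was the share of all tested probe sets called. Of 20 further transcription factors of endothelium 9 fell and 4 rose (median -0.28), with Mef2c (-1.37 ± 0.17), which muscle also expresses, and Foxc1 (-1.04 ± 0.15) lower and Foxf1 (1.68 ± 0.18), a factor of lung and gut mesenchyme and endothelium, higher. Foxf1 read 6.70 and 6.58 in wild type, below the table median, and passed the filter through the 6 transgenic arrays alone. The count of called transcription factors was lower without wild-type replicate 1. It was 8 without hTNF replicate 3, where 24.3% of all tested probe sets were called, against 33.0% in the fit of all arrays.

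Ligands and receptors of vessel growth outside the members went both ways. Of 26 tested genes 7 fell and 4 rose in hTNF (median -0.21), against 16.4% and 16.6% of all tested probe sets. The count of 11 dropped to 6 without wild-type replicate 2 or hTNF replicate 3. Of all tested probe sets, 25.2% and 24.3% were called in those fits. Angpt1, the agonist of Tek, read 9.79 and 9.89 in wild type and 9.04, 9.10 and 8.98 in hTNF and fell with its receptor (-0.80 ± 0.10, adjusted p = 0.000476). Vegfb fell (-0.88 ± 0.25, adjusted p = 0.0222), but its call ended without wild-type replicate 1 (-0.53, adjusted p = 0.216) and without hTNF replicate 1 (0.0607) or 3 (0.0668), with a range of 0.0108 to 0.216 over the 17 alternatives. The co-receptor Nrp2 rose (1.27 ± 0.12, adjusted p = 0.000106). Of 13 other lymphatic genes 6 fell and 5 rose (median -0.04). Their count was lower without wild-type replicate 1, and it was 5 without hTNF replicate 3, where 24.3% of all tested probe sets were called. Pdpn (1.78 ± 0.09) and Tbx1 (-1.21 ± 0.32) moved most beside Nrp2. The call of Tbx1 ended without wild-type replicate 1 (-0.78, adjusted p = 0.167) and without hTNF replicate 3 (0.0555), with a range of 0.00566 to 0.167 over the 17 alternatives. Pdpn is also a marker of synovial fibroblasts, of whose 14 tested markers 9 rose.

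Genes of inflamed endothelium were higher where they passed the test. Of 9 tested genes 6 rose and none fell in hTNF (median 0.82), against 16.6% and 16.4% of all tested probe sets. The count and the median include Sele, described below. The rises were led by the adhesion ligand Icam1 (2.56 ± 0.16, limma adjusted p = 1.53e-05), the NF-kB inhibitor Tnfaip3 (2.50 ± 0.20) and the membrane chemokine Cx3cl1 (2.23 ± 0.17). None of these is restricted to endothelium. The mean of the list was 8.36 and 8.54 in wild type, 9.38 to 9.74 in hTNF and 9.82 to 10.11 on the arrays labelled null. Sele, 1 of the 6 and a selectin largely restricted to endothelium that was singled out after its values were seen, read 5.93 and 5.54 in wild type, 6.54, 7.23 and 7.23 in hTNF and 8.55, 7.68 and 7.91 on the arrays labelled null. It exceeded the table median on 5 arrays, all of them transgenic, and so entered the fit through the groups where it is high; its values are given as a description. Madcam1, Glycam1 and Chst4, genes of high endothelial venules, did not exceed the table median on any array.

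Most genes on a list of pericytes and smooth muscle, the cells that wrap vessels, were lower as well. Of 14 tested pericyte and smooth muscle genes 10 fell and 1 rose in hTNF (median -0.87), and on the arrays labelled null 8 fell. Beside these counts and those of the lists that follow, 16.4% of all tested probe sets fell and 16.6% rose in hTNF. On the arrays labelled null 20.2% of all fell and 18.7% rose. Cnn1 (-1.58 ± 0.19, adjusted p = 0.000304), the potassium channel subunit Abcc9 (-1.41 ± 0.15, adjusted p = 0.000211) and the smooth muscle myosin Myh11 (-1.34 ± 0.13, adjusted p = 0.000118) changed most. Cnn1 exceeded the table median on 3 arrays, both wild-type ones and hTNF replicate 2, so it passed the filter mainly through the group where it is high. The mean of the list was 10.59 and 10.63 in wild type, 9.81 to 9.97 in hTNF and 9.76 to 9.97 on the arrays labelled null. Markers of skeletal muscle, a vessel-rich tissue of the ankle, were lower too: 19 of 20 tested markers fell in hTNF, with means of 14.02 and 14.07 in wild type, 12.77 to 13.10 in hTNF and 12.42 to 12.97 on the arrays labelled null. Macrophage markers rose in 12 of 14 cases, from means of 8.60 and 8.64 to 10.61 to 11.10. The platelet markers that could carry Vwf, Pecam1 and Mmrn1 averaged 7.47 and 8.42 in wild type, 7.92 to 8.22 in hTNF and 7.87 to 8.50 on the arrays labelled null, with 1 of 12 tested genes called. The parts of these tissues in the endothelial differences were not tested.

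**Figure D4:**
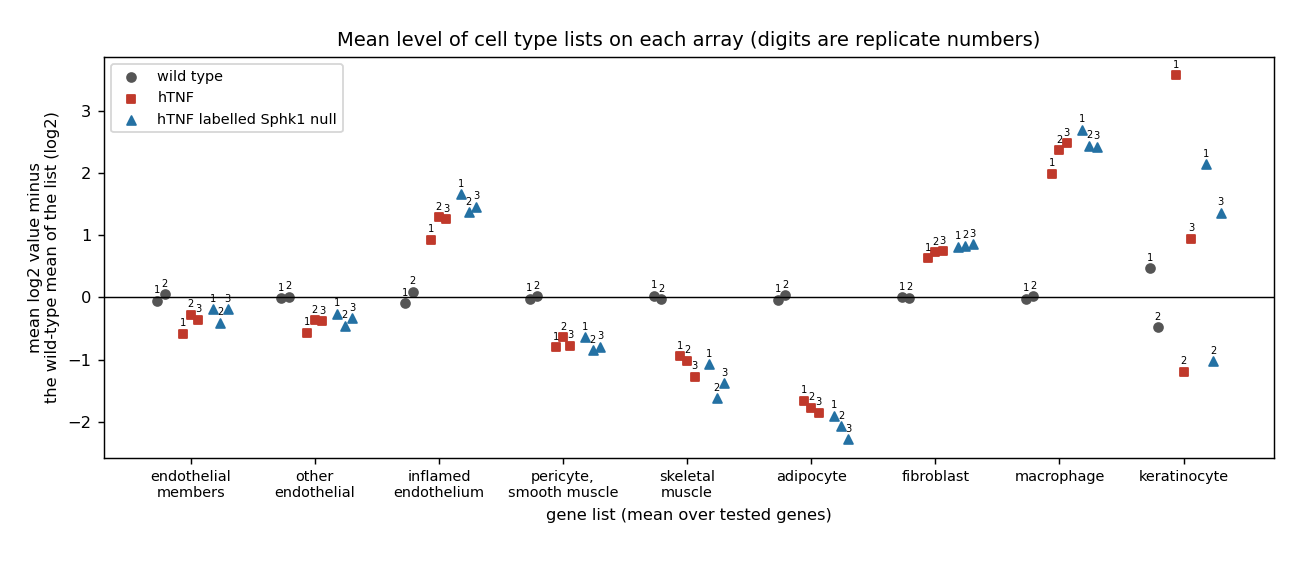
Mean log2 value over the tested genes of each cell type list on each array, minus the wild-type mean of the list; circles are wild type, squares hTNF, triangles arrays labelled Sphk1 null, and digits are replicate numbers. Endothelial, pericyte, muscle and adipocyte lists lie below wild type on all transgenic arrays, inflamed endothelium, fibroblast and macrophage lists above, and the keratinocyte list spreads more than any other list plotted.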

How the data were processed

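The log2 expression values analysed are those the authors deposited, for 45101 probe sets on 8 arrays. The submitters' processing notes name Affymetrix Expression Console, RMA and MAS5, with no role or version. Per the labels' protocols, total RNA was isolated with TRIzol and a column kit and labelled as biotin cRNA. Array medians lie between 6.84 and 6.89, and the number of arrays limits the precision (median SE 0.146 log2 for hTNF against wild type, 0.131 for the comparison of both transgenic groups). Gene names come from the platform's annotation, brought up to date with a RefSeq gene table (GRCm38.p6): 34945 probe sets had 1 gene, 932 several and 9160 none. The 64 control probe sets were left out, and 24115 probe sets passed the filter. A linear model with a mean for each group and an intensity trend was fitted to the 8 arrays in limma 3.58.1 under R 4.3.3, leaving 5 residual degrees of freedom. Benjamini-Hochberg adjustment ran over all tested probe sets. The fit was tested on simulated data. The members and all lists were chosen with earlier results of these data known, and the effects of the alternative settings are given in the closing section. Beside the members, the 3 largest called changes of each vessel list are named. Same-numbered arrays of different groups correlated at -0.167 to 0.273 in their deviations from the group means.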

Additional observations from a re-analysis of the deposited data

How the results depend on the processing

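Filters on dim probe sets, quantile normalization, an offset of 32 before log2, no intensity trend, a fit of only the groups compared, a replicate block, each array left out in turn, the 3 arrays with mixed sex-linked signal left out, and the mean of the probe sets of a gene were tried. The count of members called in hTNF against wild type was 10 without the 3 arrays and 10 to 20 when 1 array was left out, lowest without wild-type replicate 2; that of all probe sets was 4695 to 9313. On the arrays labelled Sphk1 null against wild type, 10 to 16 members and 6314 to 10482 probe sets were called when 1 array was left out. Between the transgenic groups no member was called by limma under any alternative, with 2 to 10 members at an unadjusted p under 0.05; of all probe sets, 1 was called with the filter on 4 arrays, 6 with quantile normalization, 0 without the 3 arrays (3770 at an unadjusted p under 0.05) and 0 to 3 when 1 array was left out (789 to 4890). Whether the replicate numbers pair the arrays could not be decided, because each group holds too few arrays. With the replicate block 18, 0 and 16 members were called in the 3 comparisons and 6515, 2 and 7770 probe sets. Fits without a wild-type replicate or without the 3 arrays held only 1 wild-type array, and the causes of these changes were not tested. No called member changed sign under an alternative; among members not called, the sign turned in 5 of 11, 12 of 31 and 5 of 15.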
